A study of Mus musculus with 12 samples.

Results

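Ly6C+ monocytes from bone marrow (BM) were compared with Ly6C+ monocytes from the fetal liver group titled Mixed, gene by gene, and each gene was then placed relative to a further fetal liver group titled WT. The members were the 3 BM and 3 Mixed libraries, 6 of the 12 libraries of the series, chosen by their titles. The BM libraries carried the tissue label bone marrow, the genotype label WT and no age, the Mixed libraries were labelled fetal liver of stage E15.5 with the genotype label WT, and the 3 WT libraries were fetal liver of genotype WT, at E13.5 for WT 1 and E15.5 for WT 2 and WT 3 (days of embryonic development). What distinguishes Mixed from WT, the strain, and the sex of the animals and age of the marrow donors are not stated by the labels, and no treatment is named. A further 3 fetal liver libraries labelled KO took part in the shared fit and are not described; fetal libraries below means those of Mixed and WT.

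Classical monocytes are short-lived blood cells marked by the surface protein Ly6C that leave their site of production through the chemokine receptor CCR2 and can become macrophages or dendritic cells in tissues. In the mouse fetus they are produced in the liver, which is then the main blood-forming organ and also makes most red cells, and after birth production moves to the bone marrow. Fetal blood cells are known for a set of RNA-binding proteins (LIN28B and the IGF2BP family) and the chromatin protein HMGA2, all of which are lost or reduced in adult blood cells.

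Levels are CPM, counts scaled to a common library size with edgeR's TMM method, from the authors' estimated counts. Total counts ran from 18208886 to 21911278 in BM, from 20332206 to 21542255 in Mixed and from 17384911 to 21703987 in WT. BM 1 stood apart in the number of genes with a count, 24422, where the other 8 libraries had 19649 to 21046. Mitochondrially encoded genes held 0.976 to 1.03% of counts in BM, 1.60 to 1.77% in Mixed and 2.02 to 2.23% in WT. Pearson correlations of log2 CPM were 0.985 to 0.988 within BM, 0.987 to 0.989 within Mixed, 0.925 to 0.930 between BM and Mixed and 0.981 to 0.987 between Mixed and WT. The Y-linked gene Ddx3y had a value of 0 in each library of BM, against 36.6, 35.8 and 38.2 CPM in Mixed and 19.1, 19.8 and 45.01 CPM in WT. Sex composition, tissue and developmental stage changed together between BM and Mixed, and their parts in the results cannot be told apart. Nothing in the labels ties the libraries to separate animals, so p-values measure the spread between these libraries, which may be technical. In such bulk RNA, fewer cells of a type and less RNA per cell cannot be told apart.

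BM and Mixed monocytes differed at most of the genes tested. Of 14618 genes tested, 8535 (58.4%) were called, that is, had a Benjamini-Hochberg adjusted p under 0.05 in edgeR's quasi-likelihood test, 4309 (29.5%) higher and 4226 (28.9%) lower in BM. At least 2-fold differences were called for 1527 genes higher in BM (10.4%) and 1335 lower (9.13%). Mixed differed from WT at 1180 genes (8.07%), 615 higher (4.21%) and 565 lower (3.87%) in Mixed; at 2-fold or more, 14 were higher (0.0958%) and 52 lower (0.356%). BM differed from WT at 9351 genes (64%), 4686 higher (32.1%) and 4665 lower (31.9%). The median log2 fold change over all genes tested was 0.0070 for BM over Mixed and -0.0064 for Mixed over WT.

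**Figure D1:**
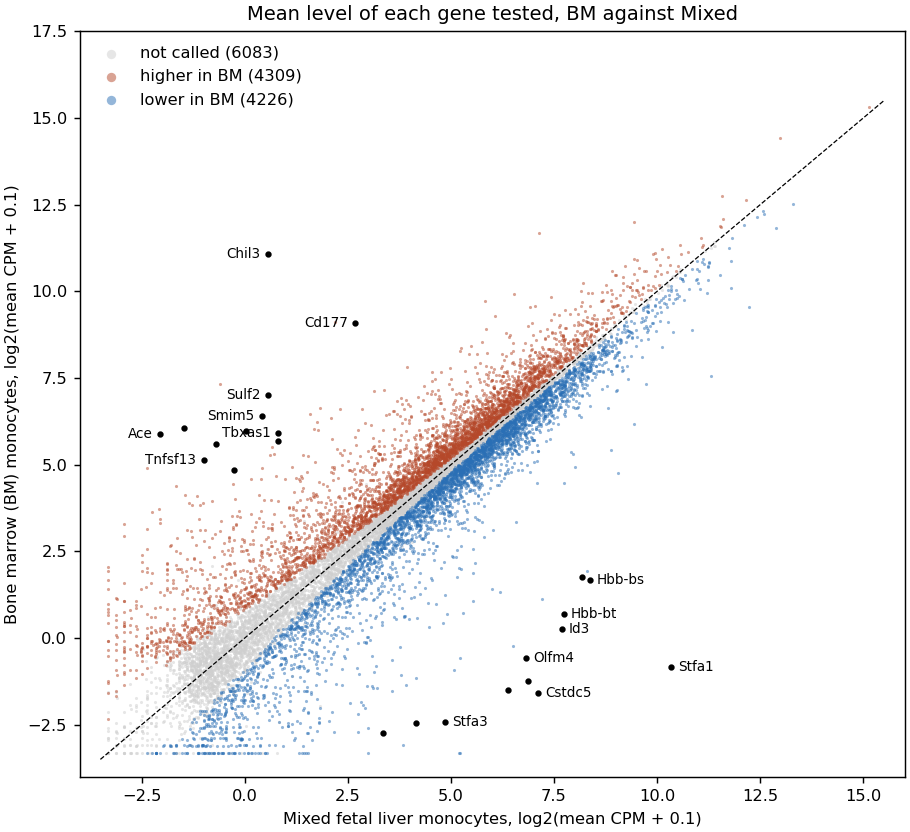
Mean level of each of the 14618 genes tested in BM monocytes (vertical axis) and Mixed fetal liver monocytes (horizontal axis), as log2(mean CPM + 0.1) over 3 libraries each; the dashed line marks equal levels. Red points are the 4309 genes called higher in BM, blue points the 4226 called lower and grey points the rest, and black points are the genes named by size of change, such as Chil3 above the line and Stfa1 below it.

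The genes furthest above Mixed included secreted and membrane proteins of myeloid cells. Chil3 (ENSMUSG00000040809, chr3:106147554-106167564, minus strand), a secreted chitinase-like protein of monocytes and neutrophils, had 2177, 2147 and 2140.3 CPM in BM, against 2.104, 0.683 and 1.35 CPM in Mixed and 2.18, 2.502 and 6.86 CPM in WT (log2 fold change 10.61 ± 0.44 SE, adjusted p = 5.40e-08). All BM libraries lay far above every fetal library. Ace, angiotensin-converting enzyme, had 50.2, 58.8 and 66.8 CPM in BM, against 0.0915, 0.182 and 0.144 CPM in Mixed (log2 fold change 8.66 ± 0.22 SE, adjusted p = 2.59e-18). Sulf2, an extracellular enzyme that removes sulfate from heparan sulfate, had 116, 139.8 and 127 CPM in BM, against 1.601, 1.32 and 1.203 CPM in Mixed (log2 fold change 6.53 ± 0.12 SE, adjusted p = 2.26e-20). Both genes were under 2 CPM in every fetal library and far higher in every BM library. Cd177, a surface glycoprotein best known from neutrophils, had 499, 576 and 566 CPM in BM, against 6.54, 5.65 and 6.64 CPM in Mixed and 10.6, 13.1 and 33.7 CPM in WT (log2 fold change 6.45 ± 0.66 SE, adjusted p = 3.30e-05). The 3 BM libraries were close to each other, and WT 3 was the highest fetal library. The other 8 of the 12 genes with the largest increase were Stxbp6, Ms4a8a, Tnfsf13 (the B cell survival factor APRIL), Smim5, Nav1, Slc28a2 (a nucleoside transporter), Tbxas1 (thromboxane synthase) and Tgtp2 (an interferon-induced GTPase), with log2 fold changes of 4.97 to 7.96 and mean levels of 28.7 to 84.0 CPM in BM.

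The genes furthest below Mixed included a cluster of protease inhibitors, fetal regulators and genes of red cells. Stfa1 (chr16:36276951-36285373, plus strand), a stefin that inhibits cysteine proteases, had 0.385, 0.513 and 0.496 CPM in BM, against 1249.9, 1361 and 1274 CPM in Mixed and 1577, 1373 and 1796 CPM in WT (log2 fold change -11.42 ± 0.16 SE, adjusted p = 2.15e-17). It was all but absent from BM and among the abundant transcripts of every fetal library. Stfa3, Cstdc4 and Cstdc5, which lie in the same stretch of chromosome 16 and encode similar inhibitors, had log2 fold changes of -8.33, -8.35 and -9.27. The copies are similar in sequence, so the division of reads between them is uncertain. Id3 (chr4:136143497-136145755, plus strand), an inhibitor of helix-loop-helix transcription factors, had 0.605, 1.17 and 1.54 CPM in BM, against 208, 205 and 206 CPM in Mixed and 194, 182 and 174 CPM in WT (log2 fold change -7.52 ± 0.12 SE, adjusted p = 8.53e-22). Its fetal libraries were alike and the BM libraries lay far below them. Olfm4, a granule protein of a neutrophil subset, had 0.769, 0.885 and 0.0496 CPM in BM, against 113, 118 and 109 CPM in Mixed (log2 fold change -7.62 ± 0.53 SE, adjusted p = 1.99e-06). Perp, a membrane protein induced by p53, had 3 counts over the 3 BM libraries and 652 over the 3 Mixed libraries, a ratio of 201 (95% interval 68.5 to 978, counting error only). Igf2bp1, Slc4a1, Hbb-bt, Hbb-bs and Hba-a1 were the other genes of the 12.

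Mixed lay between WT and BM at 865 genes, those called in the same direction for BM over Mixed and for Mixed over WT. This was 5.92% of the genes tested, 440 (3.01%) with the order BM above Mixed above WT and 425 (2.91%) with the reverse order. In 846 of the 865, which were chosen as called in both steps, all 9 libraries kept that order with no overlap of groups; over all genes tested 64.2% had no overlap of BM and Mixed and 27% none of Mixed and WT. At these genes Mixed had covered a median of 29.9% of the WT to BM difference on the log2 scale (quartiles 21.8 and 39.3%, range 2.47 to 71.4%), and over 50% at 78 genes. The median absolute log2 fold change was 0.77 for BM over Mixed and 0.31 for Mixed over WT. At 107 genes (0.732%) the directions were opposite, so that Mixed lay outside the range from WT to BM, above it at 63 genes (0.431%) and below it at 44 (0.301%). By group means alone, Mixed lay between the others at 7059 of the 9351 genes called for BM over WT. The comparisons share libraries, Mixed in both steps and BM and WT in the last count, so the counts describe these libraries and carry no test. They also depended on single libraries: the 865 became 341 without Mixed 1, 502 without Mixed 3, 365 without WT 1, whose embryonic day differs, and 526 without WT 2, while the genes called for Mixed over WT became 414, 665, 464 and 688 and the 107 became 36, 62, 49 and 69.

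Among the genes highest in BM, then Mixed, then WT, fibronectin was the most abundant in BM of the 8 with the largest Mixed over WT step at an average log2 CPM of at least 3 and with no overlap of groups. Fn1 (chr1:71585520-71653200, minus strand), an extracellular matrix protein made by monocytes, had 3109, 3297 and 3457 CPM in BM, against 142, 142 and 136 CPM in Mixed and 60.6, 72.2 and 91.3 CPM in WT. BM was far above both fetal groups, and the Mixed libraries lay above every WT library (log2 fold change 0.90 ± 0.12 SE, adjusted p = 0.00231), which covered 16.6% of the way to BM. L1cam, an adhesion molecule, had 58.1, 54.9 and 52.6 CPM in BM, against 5.58, 7.103 and 6.16 CPM in Mixed and 2.79, 3.48 and 3.34 CPM in WT, and Mixed again exceeded WT in every library (log2 fold change 0.96 ± 0.13 SE, adjusted p = 2.64e-04). Pira2, an activating immunoglobulin-like receptor, had 329, 374 and 339 CPM in BM, against 126, 122 and 123 CPM in Mixed and 66.1, 75.2 and 85.7 CPM in WT, with Mixed 32.2% of the way (log2 fold change 0.71 ± 0.076 SE, adjusted p = 1.91e-05). Its relative Lilra6 and the genes Plekhg1, Klf11 (a zinc finger repressor), Galnt9 and Cd300lg had log2 fold changes for Mixed over WT of 0.72 to 0.88, and 1.79 to 2.77 for BM over Mixed. Pira2 and Lilra6 belong to a family of similar genes, which makes their separate counts uncertain. Klf11 was no longer called for Mixed over WT without WT 2 (adjusted p = 0.0536).

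Among the genes lowest in BM, then Mixed, then WT, the 8 with the largest step under the same limits included granule genes of early myeloid cells. Such genes did not all share this order. Of 13 genes of primary granules and their precursors, 3 had it and 2 had the reverse, against 2.91% and 3.01% of all genes tested. Elane was of the reverse order, with means of 665 CPM in BM, 558 CPM in Mixed and 478 CPM in WT. Ms4a3, a marker of granulocyte and monocyte progenitors, had 13.03, 14.2 and 14.5 CPM in BM, against 30.3, 29.5 and 28.8 CPM in Mixed and 61.9, 58.04 and 49.6 CPM in WT (log2 fold change -0.94 ± 0.096 SE, adjusted p = 1.07e-05). Mixed lay near the midpoint of the groups, 46.3% of the way to BM, with no overlap on either side. Cd63, a tetraspanin of lysosomes and azurophil granules, had 3.298, 3.96 and 4.51 CPM in BM, against 36.2, 36.4 and 36.6 CPM in Mixed and 70.1, 65.4 and 92.1 CPM in WT (log2 fold change -1.06 ± 0.11 SE, adjusted p = 3.37e-05). Prss57, an azurophil granule protease, had 1.04, 4.19 and 2.93 CPM in BM, against 11.02, 10.8 and 8.90 CPM in Mixed and 18.1, 17.4 and 18.7 CPM in WT, and its step of Mixed over WT (adjusted p = 0.0453) was lost in 12 alternative settings besides the test against 1.5-fold. Perp, described above, had the same order. Wfdc21 and Stfa2 belong to the neutrophil list, whose summed level over 19 genes was 1046 to 1242 CPM in BM, 4915 to 5306 CPM in Mixed and 5955 to 8339.5 CPM in WT; the part of neutrophil RNA in these steps was not tested. Stfa2 was lost for Mixed over WT without any single Mixed library (adjusted p = 0.0622 to 0.0816), and Cstdc5 without Mixed 1 or Mixed 3 (adjusted p = 0.0736 and 0.0627). Cstdc5 was also lost in a fit of the Mixed and WT libraries alone (adjusted p = 0.0782). The mitochondrial ribosomal RNA mt-Rnr1 had 136, 123 and 167 CPM in BM, against 232, 290.4 and 236 CPM in Mixed and 484, 429 and 412 CPM in WT (log2 fold change -0.80 ± 0.13 SE, adjusted p = 0.00587), in the same order as the share of counts from mitochondrially encoded genes given above.

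**Figure D2:**
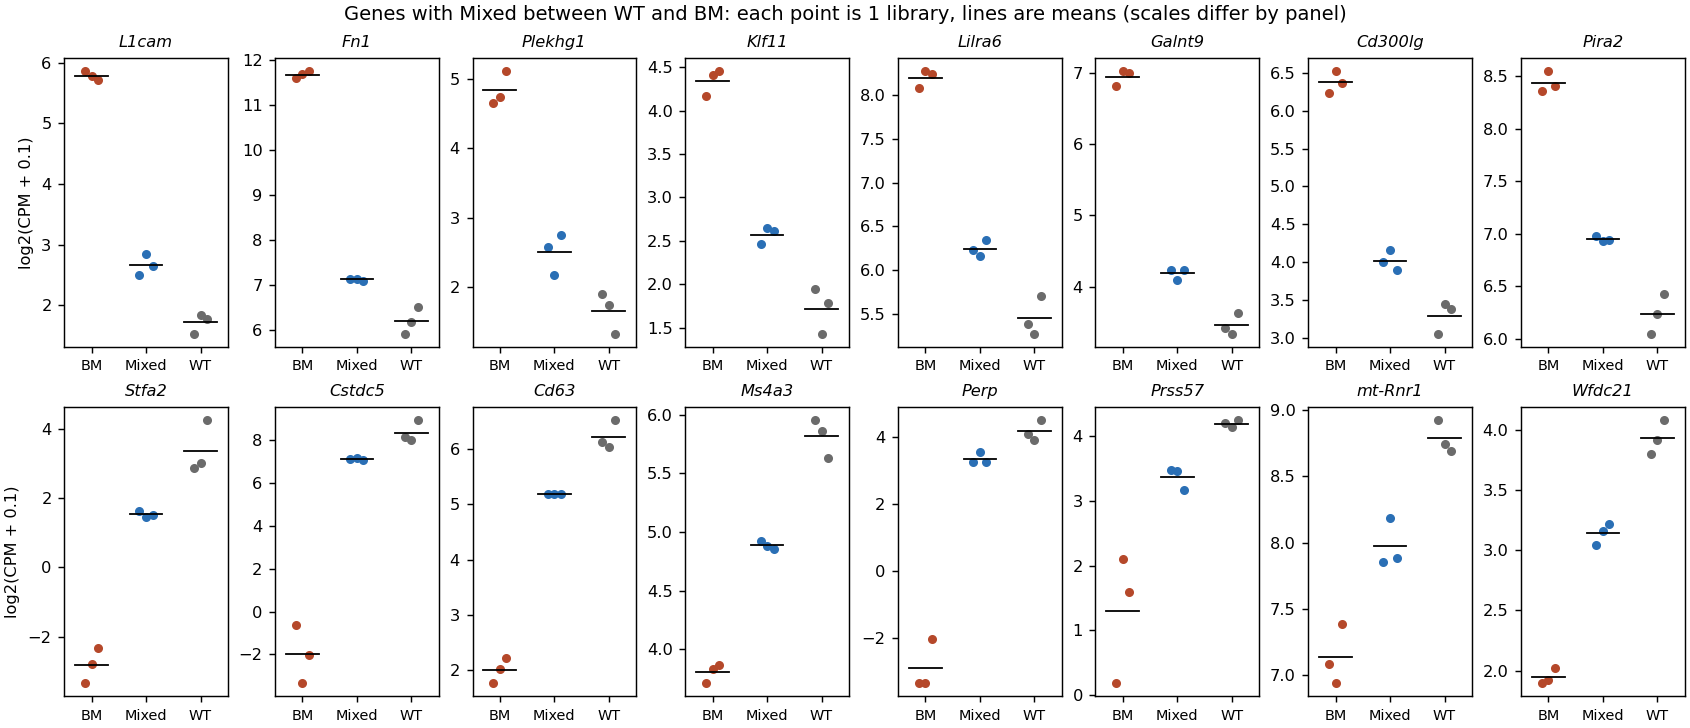
Level of the 16 genes with the largest Mixed over WT step (8 per direction) among those with Mixed between WT and BM, an average log2 CPM of at least 3 and no overlap of groups, as log2(CPM + 0.1), 1 panel per gene with its own scale; points are libraries and lines are group means. In each panel the 3 Mixed libraries (blue) lie between the 3 BM libraries (red) and the 3 WT libraries (grey), in most panels nearer to WT.

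Classical monocyte genes summed to 45243 to 46210 CPM in BM, 17499 to 17637 CPM in Mixed and 13691 to 15260 CPM in WT. Most of them were higher in BM, against 29.5% of all genes tested. The cells were labelled Ly6C+, so the level of Ly6c2 is no test of their identity, which was not tested. Of 18 classical monocyte genes, 15 rose and 2 fell in BM relative to Mixed (median log2 fold change 1.26), and 7 of the 15, among them Fn1, Ctss, Ly6c2, Lyz2, Ccr2 and F13a1, were also higher in Mixed than WT. Ly6c2, which encodes the Ly6C antigen, averaged 1958 ± 45.1 CPM in BM, 699 ± 4.499 CPM in Mixed and 526 ± 31.1 CPM in WT (SD, n = 3 each). Lyz2, lysozyme, averaged 21891 ± 219, 8069 ± 108 and 6092 ± 653 CPM in the same groups (SD, n = 3 each). In both genes the 3 groups kept the order BM, Mixed, WT, with the larger step between BM and Mixed. S100a4, a calcium-binding protein, rose (log2 fold change 4.52 ± 0.17 SE, adjusted p = 8.48e-14), whereas Fcgr1, the high-affinity IgG receptor, and Vcan, versican, fell (Fcgr1 log2 fold change -1.71 ± 0.077 SE, adjusted p = 3.49e-14). Of 16 non-classical monocyte genes, 11 rose and 2 fell; Ace, Nr4a1 (the nuclear receptor needed for that subset), Cd36 and Eno3 led, and Cx3cr1, the fractalkine receptor, had 356, 363 and 364 CPM in BM, against 90.7, 94.3 and 86.8 CPM in Mixed (log2 fold change 2.00 ± 0.10 SE, adjusted p = 1.80e-10).

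Genes of early granulocyte and progenitor stages, red cells and macrophages more often fell than rose in BM. Over all genes tested, 29.5% rose and 28.9% fell. Of 13 genes of primary granules and their precursors, 5 rose and 8 fell: Mpo, myeloperoxidase, had 685, 829 and 743 CPM in BM, against 5109, 4639.9 and 4739 CPM in Mixed (log2 fold change -2.68 ± 0.089 SE, adjusted p = 3.59e-12), with proteinase 3 (Prtn3, -1.53) falling and Gstm1 (2.80) and neutrophil elastase (Elane, 0.25) rising. The progenitor antigen Cd34 had 27.1, 28.99 and 25.7 CPM in BM, against 548, 525 and 527 CPM in Mixed (log2 fold change -4.29 ± 0.064 SE, adjusted p = 6.33e-22), and Kit, the stem cell factor receptor, fell as well (log2 fold change -4.27); over the 13 progenitor genes 3 rose and 7 fell. Of 19 neutrophil genes 5 rose and 7 fell, not far from the shares of all genes tested. S100a8 had 175, 180.0 and 208 CPM in BM, against 2417, 2608 and 2604 CPM in Mixed. Padi4, a histone-modifying enzyme, had 62.5, 66.5 and 68.5 CPM in BM, against 2.97, 3.096 and 3.32 CPM in Mixed. The neutrophil surface marker Ly6g averaged 0.832 CPM in BM and 0.327 CPM in Mixed. All but 1 of 17 erythroid genes fell (median -4.99); the exception, Car1, was under 1 CPM in each group. The adult globin Hbb-bs had 1.87, 2.28 and 5.11 CPM in BM, against 224, 316 and 446 CPM in Mixed (log2 fold change -6.72 ± 0.60 SE, adjusted p = 1.23e-05). The fetal libraries exceeded every BM library but varied among themselves, and the summed level of the list was 31.4 to 47.4 CPM in BM, 923 to 1815 CPM in Mixed and 1119.6 to 2117 CPM in WT. Of 21 macrophage genes 3 rose and 10 fell, the complement subunit C1qb and the efferocytosis receptor Mertk among those lower (-3.48 and -3.03); Timd4, Marco and Cd5l, markers of resident liver macrophages, averaged under 1 CPM in BM and Mixed. Of 11 hepatocyte genes 1 rose (Trf, transferrin, 0.94) and 3 fell (median -4.41), a count that ran from 2 to 10 over the alternatives; albumin (Alb) was at 0 in BM and averaged 0.839 CPM in Mixed.

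Immunoglobulin and B cell genes were higher in BM. For all genes tested the shares were 29.5% higher and 28.9% lower. Ighm had 910.5, 1046 and 953 CPM in BM, against 104, 80.5 and 90.9 CPM in Mixed (log2 fold change 3.40 ± 0.14 SE, adjusted p = 2.54e-09), and 7 of 9 B cell genes rose and 1 fell. The defining marker Ms4a1 averaged 0.814 CPM in BM and 0.0785 CPM in Mixed. The basophil protease Prss34 varied within BM (10.8, 29.1 and 2.73 CPM in BM, against 0.503, 0.228 and 0.385 CPM in Mixed). Of 5 mast cell and basophil genes 2 rose and 2 fell, of 7 megakaryocyte genes 2 rose and 3 fell, and of 7 plasmacytoid dendritic cell genes 3 rose and 1 fell. Siglecf was the called gene of 7 eosinophil genes and fell (-2.37). Few genes of T and NK cells (2), endothelium (2) and embryonic globins (3) passed the filter on low counts. The part of other cell types in the genes described here was not tested.

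**Figure D3:**
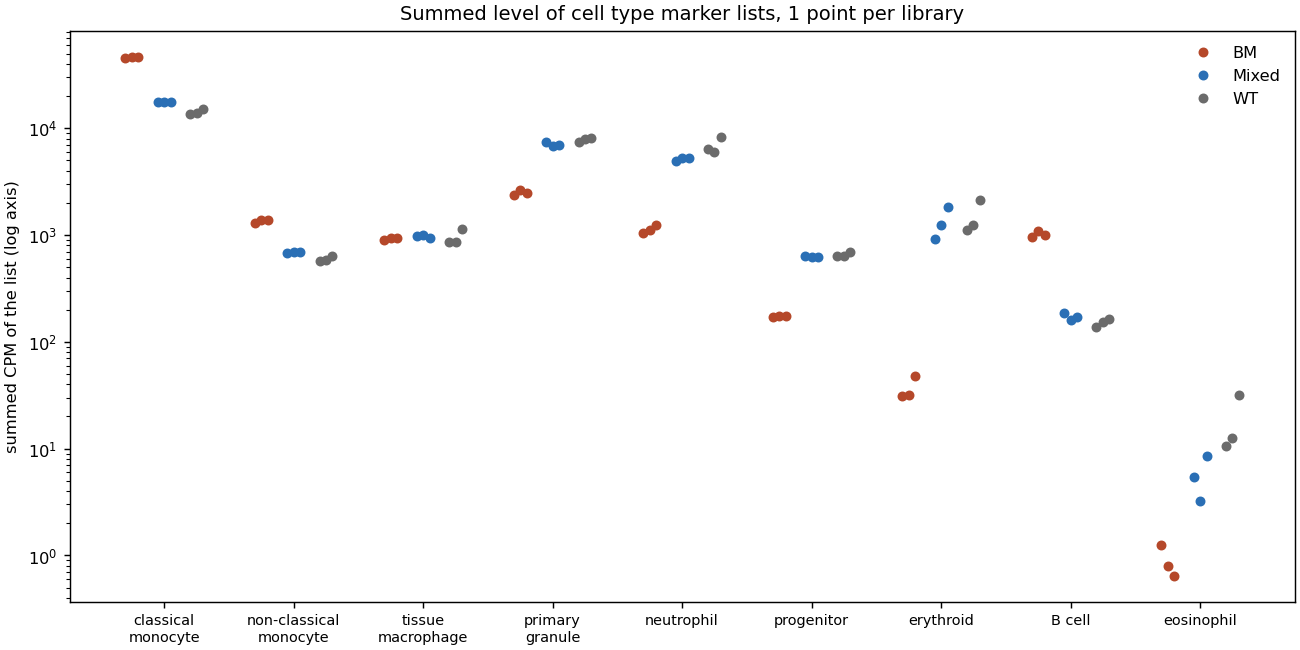
Summed CPM (log axis) of 9 cell type marker lists, 1 point per library, BM in red, Mixed in blue and WT in grey. Classical and non-classical monocyte and B cell sums are higher in the BM libraries, primary granule, neutrophil, progenitor, erythroid and eosinophil sums are lower in them, and macrophage sums are similar.

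Receptors for migration, adhesion and pathogen sensing mostly rose, several of them in steps, that is, with Mixed between WT and BM. Over all genes tested, 29.5% rose, 28.9% fell and 3.01% rose in steps. Of 18 chemokine receptor and homing genes 11 rose and 3 fell, and 6 of the 11 had Mixed between WT and BM. Itgb7, an integrin subunit used for homing to the gut, had 626, 601 and 650.4 CPM in BM, against 66.1, 73.5 and 62.1 CPM in Mixed and 47.6, 43.5 and 42.2 CPM in WT (log2 fold change 3.22 ± 0.067 SE, adjusted p = 1.16e-19). Ccr2, the receptor for monocyte exit from marrow, averaged 2167 ± 63.9 CPM in BM, 955 ± 28.96 CPM in Mixed and 811 ± 93.8 CPM in WT (SD, n = 3 each). Both genes were ordered BM, Mixed, WT in all 9 libraries, and Selplg, Itgb2 and Itgal were among the other genes with Mixed between. Ccr1 and Cxcr2 were among those that fell (-1.68 and -3.00). Of 22 Toll-like and lectin receptor genes 15 rose and 6 fell: the sensor of single-stranded RNA Tlr7 had 34.6, 39.8 and 41.4 CPM in BM, against 4.12, 5.83 and 5.05 CPM in Mixed (log2 fold change 2.95 ± 0.15 SE, adjusted p = 4.02e-13), Clec4a3, Clec4a1 and Tlr13 rose in steps, and Tlr4, the endotoxin receptor, fell (-1.06). Lysosomal genes rose in 18 of 24 cases and fell in 6. Cathepsins S, H, B and A, Cd68, Npc2 and Psap rose in steps, as with Ctss at 1402, 1462 and 1409 CPM in BM, against 494, 503 and 517 CPM in Mixed and 419.6, 429.7 and 469.6 CPM in WT, whereas the cathepsin Ctsc fell (log2 fold change -1.69 ± 0.054 SE, adjusted p = 1.03e-16).

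Antigen presentation genes were higher in BM. The shares of all genes tested were 29.5% higher and 28.9% lower. Of 11 MHC class II genes 9 rose and 2 fell in BM (median log2 fold change 3.91, against 0.0070 over all genes). H2-Ab1, the class II beta chain, had 79.6, 97.2 and 87.2 CPM in BM, against 3.38, 2.87 and 2.502 CPM in Mixed and 6.42, 6.25 and 11.1 CPM in WT (log2 fold change 4.91 ± 0.21 SE, adjusted p = 2.66e-09). The BM libraries were all above those of Mixed and WT, and here Mixed was below WT rather than between (log2 fold change -1.44 ± 0.25 SE, adjusted p = 0.00702). H2-Aa, H2-Eb1 and Cd74 (the invariant chain) shared that order, and the peptide loading genes H2-DMa, H2-DMb1 and Ifi30 had Mixed between WT and BM. Ciita, the class II transactivator, rose (3.95) with a mean of 7.29 CPM in BM and 0.472 CPM in Mixed. Of 17 class I genes 15 rose and 1 fell (median 1.81). H2-K1 had 692, 779 and 761 CPM in BM, against 120.3, 124 and 115 CPM in Mixed (log2 fold change 2.63 ± 0.076 SE, adjusted p = 1.01e-16), and its regulator Nlrc5 rose (3.83). H2-Q7 had 577 counts over BM and 2 over Mixed, a ratio of 312 (95% interval 85.9 to 2580, counting error only), but the H2-Q genes are near-identical copies and their counts are uncertain. Conventional dendritic cell genes, some of which monocytes share, rose in 8 of 14 cases and fell in 4; their summed level was 297 to 301 CPM in BM, 132 to 147 CPM in Mixed and 115 to 143 CPM in WT, and its part in the class II values was not tested. The dendritic cell marker Zbtb46 averaged 0.488 CPM in BM and 1.26 CPM in Mixed.

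Interferon-induced genes were higher in BM almost throughout the list, and none was placed between WT and BM by Mixed. Of 30 type I interferon response genes 29 rose and none fell (median 1.62); the exception, Bst2 (tetherin), had 53.5 CPM in BM and 50.4 CPM in Mixed on average. Ifit3 (ENSMUSG00000074896, chr19:34583531-34588731, plus strand), an interferon-induced antiviral protein, had 70.7, 79.4 and 70.8 CPM in BM, against 8.23, 6.01 and 7.94 CPM in Mixed and 10.8, 11.4 and 14.0 CPM in WT (log2 fold change 3.32 ± 0.12 SE, adjusted p = 5.91e-16). Rsad2, the antiviral enzyme viperin, had 18.5, 20.6 and 16.8 CPM in BM, against 2.15, 2.55 and 1.88 CPM in Mixed and 3.46, 4.74 and 7.66 CPM in WT (log2 fold change 3.08 ± 0.22 SE, adjusted p = 3.14e-10). In both genes Mixed was the lowest of the 3 groups, with no overlap with WT, as it also was in Ifit1 and Ifi205. Ifi27l2a had 216, 205 and 243 CPM in BM, against 30.01, 29.05 and 34.9 CPM in Mixed (log2 fold change 2.82 ± 0.096 SE, adjusted p = 9.01e-15). The master regulator Irf7 rose (1.76), as did Stat2 (1.59) and Irf9 (1.07), which carry the interferon signal. Of 14 interferon gamma GTPases 10 rose and 3 fell, against 29.5% and 28.9% of all genes tested.

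The promoters of Ifit3 and Rsad2 are shown because the list moved together and a known interferon element is recognisable in them. Each line gives 250 bases before and 50 after the gene's start from RefSeq on GRCm38.p6, read in the direction of transcription, with matches to the core of the interferon-stimulated response element (GAAA, any 2 bases, GAAA, on either strand) in capitals.
Ifit3, chr19:34583279-34583578, plus strand: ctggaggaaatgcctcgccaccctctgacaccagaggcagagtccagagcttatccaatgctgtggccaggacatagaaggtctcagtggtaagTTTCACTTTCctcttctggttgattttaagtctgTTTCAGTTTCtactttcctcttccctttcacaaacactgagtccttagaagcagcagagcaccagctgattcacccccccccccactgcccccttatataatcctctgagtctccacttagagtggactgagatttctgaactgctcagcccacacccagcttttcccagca
Rsad2, chr12:26456403-26456702, minus strand: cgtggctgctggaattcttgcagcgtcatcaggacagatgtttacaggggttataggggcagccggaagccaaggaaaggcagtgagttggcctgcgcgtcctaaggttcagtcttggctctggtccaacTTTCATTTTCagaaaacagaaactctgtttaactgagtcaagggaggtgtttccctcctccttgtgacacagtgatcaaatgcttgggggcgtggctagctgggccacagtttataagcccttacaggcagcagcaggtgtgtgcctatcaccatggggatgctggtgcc
Ifit3 holds 2 matches and Rsad2 holds 1, all on the opposite strand. Of 25 promoters of the listed genes, 12 (48.0%) held a match, against 1131 (3.44%) of all 32851 promoters of the same length. By gene this was 12 (57.1%) of the 21 listed genes with an entry. A match is a description of these letters and not a binding site.

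Fetal RNA-binding and HMGA genes were lower in BM. Among all genes tested, 29.5% rose and 28.9% fell. Of 9 measured genes 8 fell, and the exception was the cell cycle factor E2f2, which rose (1.40). Igf2bp1 had 0.824, 0.0932 and 0.0496 CPM in BM, against 119, 118 and 116 CPM in Mixed and 159, 142 and 156 CPM in WT (log2 fold change -8.58 ± 0.24 SE, adjusted p = 1.83e-12), and Igf2bp3 had 2.53, 1.68 and 2.08 CPM in BM, against 147, 146 and 149 CPM in Mixed and 169, 154 and 159.8 CPM in WT (log2 fold change -6.14 ± 0.095 SE, adjusted p = 7.54e-22). Lin28b, which blocks maturation of the let-7 miRNAs, averaged 0.2896 ± 0.419 CPM in BM, 14.9 ± 1.28 CPM in Mixed and 19.9 ± 1.39 CPM in WT (SD, n = 3 each; log2 fold change -5.76). All 3 were near absent from BM, and their Mixed libraries lay below the WT libraries without a call. Igf2bp2, Hmga2 and E2f2 were the members with Mixed between WT and BM, at 7.43% of the way for Igf2bp2 (log2 fold change -0.41 ± 0.12 SE, adjusted p = 0.0306). Of 11 imprinted growth genes 1 rose and 6 fell, and the fallen genes were under 4 CPM in Mixed on average. Snrpn had 0 counts in BM and 175 over the 3 Mixed libraries, at least 18-fold lower in BM against a floor of 3 counts per library, and Grb10 had 2 counts in BM and 192 in Mixed. Of 16 chromatin genes 4 rose and 9 fell: Dnmt3a, a DNA methyltransferase, fell (log2 fold change -1.33 ± 0.094 SE, adjusted p = 6.99e-11) and Cbx7, a Polycomb subunit, rose (log2 fold change 2.24 ± 0.28 SE, adjusted p = 3.92e-07).

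The transcription factors named in the title of the series moved in opposite directions. Zeb2 (chr2:44983632-45117395, minus strand), a zinc finger factor that maintains macrophage identity, had 311, 319.7 and 338 CPM in BM, against 179, 159 and 165 CPM in Mixed and 141, 143 and 165 CPM in WT (log2 fold change 0.95 ± 0.068 SE, adjusted p = 8.07e-11). BM was above both fetal groups, and Mixed and WT overlapped (log2 fold change 0.16 ± 0.068 SE, adjusted p = 0.164). Its antisense transcript Zeb2os moved the other way (-1.13); the library kit does not mark strand, so reads of the overlapping stretch cannot be assigned. Maf (chr8:115682942-115707794, minus strand), a factor of tissue macrophages, had 4.29, 2.94 and 2.63 CPM in BM, against 7.55, 10.6 and 9.38 CPM in Mixed and 13.9, 12.1 and 14.9 CPM in WT (log2 fold change -1.49 ± 0.20 SE, adjusted p = 2.06e-06). Maf in Mixed lay below every WT library but was not called for Mixed over WT (log2 fold change -0.57 ± 0.18 SE, adjusted p = 0.0539). Of 25 myeloid transcription factors 11 rose and 6 fell, against 29.5% and 28.9% of all genes tested. Irf8, which directs monocyte development, rose in steps with 537, 544 and 539 CPM in BM, against 323, 345 and 330.3 CPM in Mixed and 287, 282 and 298 CPM in WT (log2 fold change 0.70 ± 0.052 SE, adjusted p = 1.41e-10), Klf4 rose (1.60) and Id2 and Id1 fell with Id3 (-1.88 and -1.63). Spi1, the myeloid factor PU.1, was not called (log2 fold change 0.076, adjusted p = 0.387).

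Replication, ribosomal and energy genes were lower in BM mostly by less than 2-fold. Of 29 DNA replication genes 27 fell and none rose (median -0.61), where 28.9% of all genes tested fell and 29.5% rose. Mcm4, a subunit of the replicative helicase, had 211, 214 and 201 CPM in BM, against 394, 369 and 399.5 CPM in Mixed (log2 fold change -0.89 ± 0.052 SE, adjusted p = 2.76e-12). Of 25 mitosis genes 17 fell and 2 rose (Kif23 and Nusap1, of which at least 1 lost its call in 17 of 21 alternatives), with cyclin B1 (Ccnb1) at 299, 306 and 290.1 CPM in BM, against 532, 511 and 529 CPM in Mixed (log2 fold change -0.81 ± 0.049 SE, adjusted p = 5.27e-12) and Mki67 not called (-0.087, adjusted p = 0.157). In Mcm4 and Ccnb1 the BM libraries lay far below all fetal libraries, and neither gene was called for Mixed over WT (log2 fold changes 0.027 and -0.052). Of 27 ribosomal protein genes 25 fell and none rose (median -0.51). In 11 of them the fall was in steps, against 2.91% of all genes tested. Rpl5 had 116, 101 and 108 CPM in BM, against 213, 221 and 233 CPM in Mixed and 296, 296 and 257 CPM in WT (log2 fold change -1.04 ± 0.065 SE, adjusted p = 9.03e-12). Of 23 oxidative phosphorylation genes 17 fell and 1 rose, and of 19 glycolysis and hypoxia genes 13 fell and 3 rose. These counts depended on the setting. In each list 1 of the 21 alternatives moved the falling count more than 1.5-fold, except glycolysis and hypoxia, where none did. Over the alternatives the falling genes ran from 9 to 27 for DNA replication and from 4 to 21 for mitosis. They ran from 7 to 26 for ribosomal proteins, from 1 to 17 for oxidative phosphorylation and from 10 to 14 for glycolysis and hypoxia. Lactate dehydrogenase A (Ldha) had 452, 488 and 470.5 CPM in BM, against 1836, 1816 and 1880.2 CPM in Mixed (log2 fold change -1.97 ± 0.047 SE, adjusted p = 8.13e-19), while Ldhb rose (log2 fold change 1.23 ± 0.097 SE, adjusted p = 4.37e-10).

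The promoters of the mitosis genes are known for the CCAAT box and the CHR element, and that of Ccnb1, the listed mitosis gene of highest level among those named, shows 2 CCAAT boxes in capitals (CCAAT on either strand; same source and window).
Ccnb1, chr13:100786437-100786736, minus strand: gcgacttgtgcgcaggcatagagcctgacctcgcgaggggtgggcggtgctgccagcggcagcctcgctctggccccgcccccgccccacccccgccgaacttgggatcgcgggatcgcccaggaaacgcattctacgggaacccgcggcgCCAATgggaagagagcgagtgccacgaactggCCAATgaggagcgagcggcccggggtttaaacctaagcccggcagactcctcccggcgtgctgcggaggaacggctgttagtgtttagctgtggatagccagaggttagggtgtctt
The letters TTTGAA, the form of the CHR element that was searched, are on neither strand of this window. Other forms of the element were not searched. Of 22 promoters of the listed mitosis genes, 19 (86.4%) held CCAAT and 16 (72.7%) held TTTGAA, against 37.4% and 17.9% of all promoters. By gene this was 18 (85.7%) and 15 (71.4%) of the 21 mitosis genes with an entry.

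**Figure D4:**
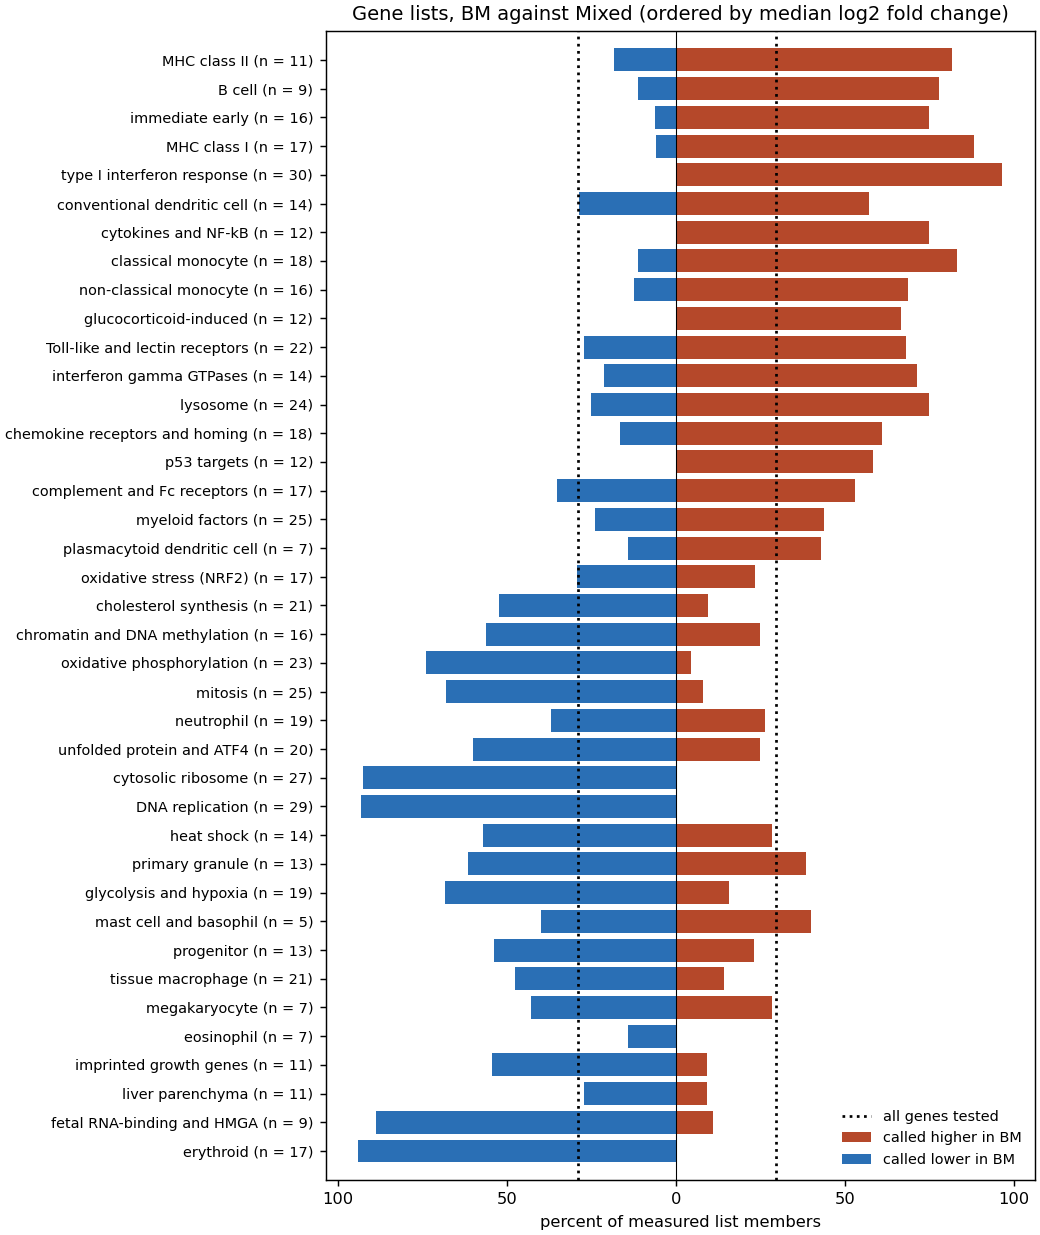
Percent of the measured members of each of 39 gene lists called higher in BM than Mixed (red, right) or lower (blue, left), ordered by median log2 fold change; dotted lines mark 29.5% and 28.9%, the shares of all genes tested. The 3 lists with fewer than 5 measured members are not drawn, with MHC class II and B cell genes at the positive end and erythroid and fetal RNA-binding genes at the negative end.

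Stress-response genes split by pathway. The counts below stand against 29.5% of all genes tested that rose and 28.9% that fell. Of 16 immediate early genes, which respond within minutes to stimulation, 12 rose and 1 fell in BM (median 1.84). Jun had 80.8, 104 and 127 CPM in BM, against 16.2, 19.2 and 12.6 CPM in Mixed and 11.2, 10.3 and 19.03 CPM in WT (adjusted p = 3.18e-05 for BM over Mixed), and Dusp1, a phosphatase that ends MAP kinase signals, had 41.7, 66.9 and 104 CPM in BM, against 5.03, 13.2 and 6.69 CPM in Mixed (log2 fold change 3.09 ± 0.54 SE, adjusted p = 0.00105). BM libraries were all above the fetal ones but spread widely among themselves, BM 1 being the lowest in both. Egr1, of the same list, fell (-1.69), and Nr4a1 was the list's gene with Mixed between WT and BM. The glucocorticoid-induced list had 8 of 12 genes higher and none lower, Tsc22d3 (the leucine zipper protein GILZ) in steps with 341, 377 and 365 CPM in BM, against 112, 110.0 and 110.0 CPM in Mixed and 69.7, 66.8 and 92.6 CPM in WT (log2 fold change 1.71 ± 0.092 SE, adjusted p = 7.22e-11). Of 12 cytokine and NF-kB genes 9 rose and none fell, led by Il1b (2.30) and Ccl2 at 50.6, 71.3 and 69.8 CPM in BM, against 18.9, 17.5 and 19.3 CPM in Mixed. Of 12 listed p53 targets 7 rose and none fell (median 0.49). The rising count ran from 1 to 8 over the alternatives, and 1 of them moved it more than 1.5-fold. Trp53inp1 was among those that rose (log2 fold change 2.57 ± 0.15 SE, adjusted p = 2.49e-12). Perp, described above as induced by p53, was outside this list and fell.

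Chaperone and unfolded protein genes went the other way, with exceptions of large size. Of 14 heat shock genes 8 fell and 4 rose, against 28.9% and 29.5% of all genes tested. The inducible Hspa1a had 186, 230.3 and 262 CPM in BM, against 13.95, 19.6 and 12.4 CPM in Mixed and 3.01, 4.56 and 22.6 CPM in WT (log2 fold change 3.88 ± 0.55 SE, adjusted p = 2.81e-04), where all BM libraries exceeded all fetal ones and WT 3 stood above WT 1 and WT 2. Hspa1a and Hspa1b are near-identical, so the division of reads between them is uncertain. The other chaperones that changed included Hsp90aa1, which fell with 140.1, 139 and 148 CPM in BM, against 489, 538 and 526 CPM in Mixed and 669, 657 and 625 CPM in WT (log2 fold change -1.86 ± 0.056 SE, adjusted p = 5.02e-17); Hsp90aa1, Hspd1 and Hspe1 had Mixed between WT and BM. Of 20 unfolded protein and ATF4 pathway genes 12 fell and 5 rose. Asns, asparagine synthetase, had 2.53, 2.24 and 2.48 CPM in BM, against 67.6, 73.7 and 76.9 CPM in Mixed and 96.6, 98.7 and 108 CPM in WT (log2 fold change -4.91 ± 0.11 SE, adjusted p = 5.18e-19), and Phgdh, the entry enzyme of serine synthesis, fell as well (-2.66). In Asns, Mixed lay between WT and BM in every library, 8.82% of the way. Ppp1r15a, which restores translation after stress, rose (log2 fold change 2.31 ± 0.31 SE, adjusted p = 1.22e-04). Of 17 oxidative stress genes 4 rose and 5 fell (median -0.038), shares close to the 29.5% and 28.9% of all genes tested.

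**Figure D5:**
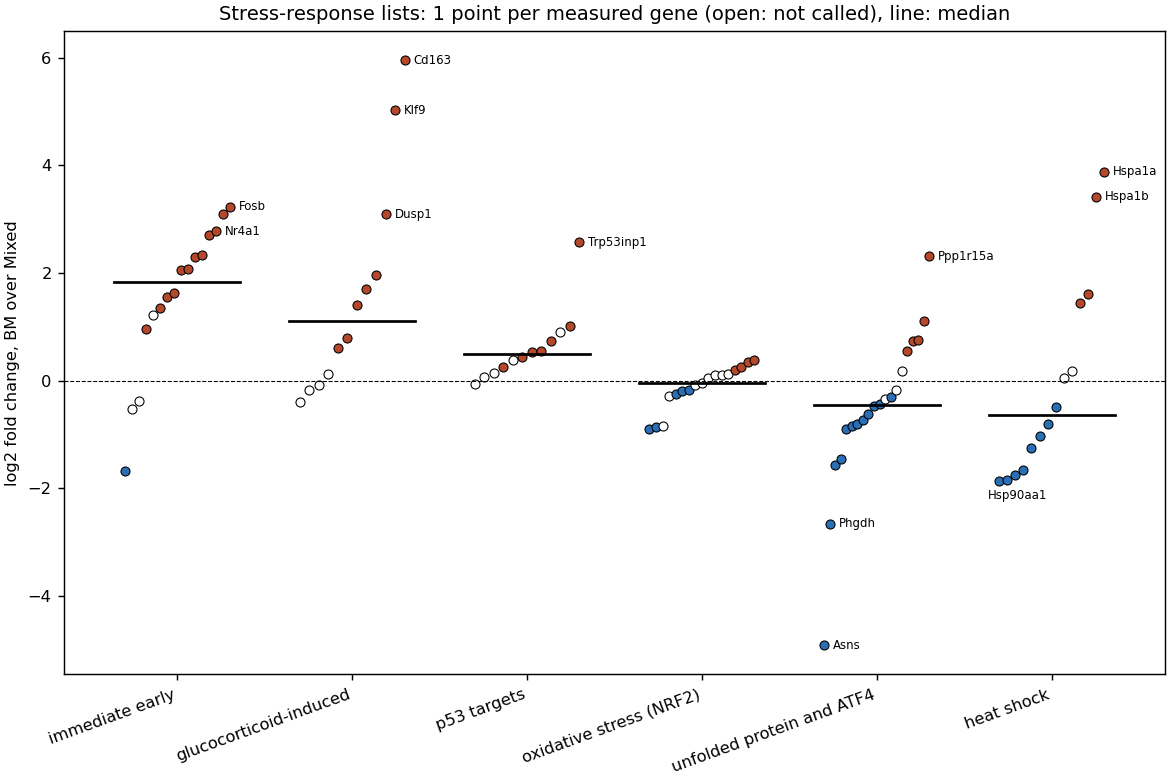
Log2 fold change of BM over Mixed for each measured gene of 6 stress-response lists; filled points are called (red higher, blue lower in BM), open points are not, and horizontal lines are list medians. Immediate early, glucocorticoid-induced and p53 lists lie above 0 by their medians, and the unfolded protein and heat shock lists lie below 0 with Hspa1a, Hspa1b and Ppp1r15a as high exceptions.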

How the data were processed

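Bulk RNA-seq was made from Ly6C+ monocytes with SMARTer Ultra Low chemistry, unstranded, and sequenced on a NovaSeq X Plus, per the labels' protocols. The authors deposited a table of estimated counts per gene. DRAGEN, STAR, Subread, featureCounts and Salmon and the build mm10 are named per the submitters' processing notes, with no role or order given. Among values above 0, 28.5% were fractional (tolerance 1e-06), so counts may divide reads between similar genes. Tables of CPM and TPM were left aside.

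Of 55774 entries, 287 repeats of a gene with identical values were dropped, which left 55487 genes, and values were rounded to whole numbers. In R 4.3.3, edgeR 4.0.16 was used: filterByExpr (minimum count 10, total 15) kept 14618 genes, followed by TMM scaling, estimateDisp (common biological coefficient of variation 0.0917), robust glmQLFit on group means of all 12 libraries and two-sided quasi-likelihood tests, with Benjamini-Hochberg adjustment over all genes tested. SE is the absolute log2 fold change divided by the square root of F. Intervals and floors cover counting error only. The fit was tested on simulated counts. Some listed genes are not reported here by name. Named genes were called genes of average log2 CPM of at least 3 with no overlap of BM and Mixed libraries (12 per direction by size of change), up to 4 called members per list of average log2 CPM of at least 1, genes with Mixed between WT and BM, average log2 CPM of at least 3 and no overlap of groups (8 per direction by Mixed over WT), and Zeb2 and Maf; predicted genes, pseudogenes, chromosome Y genes and Xist were left out of the rankings. Other genes named illustrate a count in their list and were chosen after their values were seen. The comparison, the 42 lists and the rules were chosen with earlier results of these data known. Positions are from GENCODE vM21 (mm10), promoters from RefSeq. DESeq2 1.42.0, other scalings and filters, a fit of the compared groups, a replicate block, edgeR's test against a 1.5-fold change and leaving out each library were tried.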

Additional observations from a re-analysis of the deposited data

How the results depend on the processing

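The 166 genes chosen by the naming rule were run under 21 alternatives, and none changed direction; other genes in the text were not run singly. Of the 166, 150 kept their call for BM over Mixed in all of them; 16 lost it in edgeR's test against a 1.5-fold change, among them Igf2r, which also lost it without BM 3 (adjusted p = 0.0767) or Mixed 2 (adjusted p = 0.0531). That test called 3224 genes for BM over Mixed, 4247 for BM over WT and 0 for Mixed over WT, hence 0 with Mixed between; at an unadjusted p under 0.05 it gave 241 genes for Mixed over WT and 65 between, and DESeq2, which tests against no change, called 1558 and 1125. All 16 genes named for Mixed over WT lost that call in the test against a 1.5-fold change. With a library left out, the calls ran from 7874 to 8722 for BM over Mixed, from 8756 to 9450 for BM over WT, from 414 to 1457 for Mixed over WT and from 341 to 1053 for genes with Mixed between. The 107 genes with Mixed outside became 36 without Mixed 1, 49 without WT 1, 62 without Mixed 3, 69 without WT 2, 0 in the test against 1.5-fold, 166 with DESeq2 and 175 without a filter on low counts.

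Whether the replicate numbers pair the libraries is not known. Same-numbered libraries had correlations of their deviations of -0.00432 to 0.00794 for BM and Mixed and 0.00403 to 0.0416 for Mixed and WT. Differently numbered libraries had -0.0104 to 0.00379 and -0.0399 to 0.032. With 3 libraries per group, such values cannot exclude a pairing. A replicate block gave 8479 genes for BM over Mixed, 9262 for BM over WT, 1168 for Mixed over WT and 856 between. The scalings moved the median log2 fold change of BM over Mixed between -0.0445 and 0.00705 and the share of calls higher in BM between 46.1 and 50.5%.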

Other observations

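Among the 107 genes (0.732% of those tested) at which Mixed lay outside the range from WT to BM, Scd2, Abcg1 and Aacs were higher in Mixed than in both BM and WT. They were chosen after their values were seen, and no gene of the cholesterol synthesis list was among the 107. Scd2, a fatty acid desaturase, averaged 43.2 ± 3.08 CPM in BM, 475 ± 5.58 CPM in Mixed and 371 ± 1.58 CPM in WT (SD, n = 3 each). Abcg1, a cholesterol exporter, averaged 266 ± 22.2 CPM in BM, 336 ± 11.6 CPM in Mixed and 261 ± 11.2 CPM in WT (SD, n = 3 each), and Aacs, which feeds acetoacetate into lipid synthesis, averaged 65.2 ± 3.84 CPM in BM, 106 ± 1.29 CPM in Mixed and 82.3 ± 6.58 CPM in WT (SD, n = 3 each). BM and WT averaged nearly the same level in Abcg1. Cholesterol synthesis genes fell more often than they rose in BM relative to Mixed, 11 of 21 falling and 2 rising against 28.9 and 29.5% of all genes, with Fdps, farnesyl diphosphate synthase, at 86.1, 79.2 and 81.9 CPM in BM, against 190.4, 192 and 188 CPM in Mixed (log2 fold change -1.21 ± 0.055 SE, adjusted p = 4.17e-14).

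Complement and Fc receptor genes changed in both directions. The shares of all genes tested were 29.5% higher and 28.9% lower in BM. Of 17 genes 9 rose and 6 fell in BM: C3 averaged 997 ± 65.7 CPM in BM, 322 ± 6.26 CPM in Mixed and 228 ± 48.2 CPM in WT (SD, n = 3 each), with Mixed between. The inhibitory IgG receptor Fcgr2b rose in BM (log2 fold change 2.16 ± 0.074 SE, adjusted p = 2.99e-16) and the activating receptor Fcgr1 fell (log2 fold change -1.71 ± 0.077 SE, adjusted p = 3.49e-14).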
